A study of Mus musculus with 4 samples.

Results

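The 30 genes described here encode proteins that sense DNA damage and repair it. They are checkpoint kinases and genes of homologous recombination, the Fanconi anemia pathway, end joining, mismatch repair and excision repair. They were chosen by name and function, with earlier results of these data known, and all 30 were found among its 24421 genes. Messenger RNA was sequenced in bulk from LSK cells, the lineage-negative, Sca1-positive, Kit-positive bone marrow fraction that contains the blood stem cells and their earliest progeny. The donors were mice aged 13 to 15 months. One group was wild type (WT) and the other, p53R248W/+, carried 1 allele of the Trp53 gene with the missense mutation R248W beside 1 normal allele. Each genotype had 2 libraries, numbered 1 and 2 in the labels. Nothing in the labels says whether the libraries of a genotype came from separate mice, or how many mice were pooled. The p-values here thus reflect only the spread among these 4 libraries, and that spread may be technical. The test also estimates each gene's spread partly from the other tested genes, so a p-value does not rest on that gene's 4 values alone. Paired values are given in the order replicate 1, replicate 2.

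Double-strand breaks can be bound by the MRN complex, made of Mre11, Rad50 and Nbs1, which recruits the kinase ATM. Exposed single-stranded DNA recruits the related kinase ATR. ATM phosphorylates the histone variant H2AX next to the break, Mdc1 binds that mark, and 53BP1 and Brca1 compete over whether the ends are joined directly or repaired by copying the sister chromatid. The kinases also pass the signal through Chk1 and Chk2 to the cell cycle machinery and to p53. Blood stem cells are mostly quiescent and use end joining when at rest, because a sister chromatid is present only after replication. Loss of the Fanconi genes in patients leads to bone marrow failure.

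Library totals ran from 12111126 to 14820759 counted reads, of which the 30 genes took 0.307%. Normalised read counts are given as CPM, which scales the counts to a common library size (TMM), and the 3-count detection floor lay between 0.202 and 0.248 CPM. Across the 13296 genes with enough reads to test, edgeR's quasi-likelihood test called 0 at an adjusted p under 0.05, with 780 at an unadjusted p under 0.05. DESeq2 called 6 genes and limma-voom 0. Trp53 itself gave 362 and 302 CPM in the WT libraries against 245 and 332 CPM in the mutant ones, and read counts per gene do not separate its alleles. Summed over 15 p53 target genes the level was 860.1 and 805 CPM for WT, then 795 and 767 CPM for p53R248W/+. Of the 14 that were tested, 4 had a fold change above 0 and 10 below 0, and 1 had an unadjusted p under 0.05. That gene was Cdkn1a, at 74.3 and 39.9 CPM against 16.8 and 15.6 CPM. Of the sort's defining genes, Kit was at 911 to 1182 CPM and Ly6a, which encodes Sca1, at 40.2 to 82.9 CPM. Markers of other cells were also counted, though a sum cannot tell such cells from LSK cells that transcribe the same genes. Their summed levels over the 4 libraries were 8.23 to 45.7 CPM for 8 B cell markers, 68.0 to 83.8 CPM for 8 T and NK cell markers and 11.7 to 21.3 CPM for 8 erythroid markers. For 7 neutrophil and monocyte markers they were 356 to 1350 CPM, lowest in WT replicate 2 and highest in WT replicate 1. The median marker of these 7 went the other way. Its log2 level against the marker's own mean was -0.93 in WT replicate 1 and 0.38 in WT replicate 2. The sums were 367 to 408 CPM for 7 mast cell and basophil markers and 50.9 to 112 CPM for 5 stromal and endothelial markers. At 0 counts in all 4 libraries were Pax5 of the B lineage, Cd3g of T cells, the stromal gene Cxcl12 and 4 erythroid globin genes. The part of such cells in the repair gene levels was not tested.

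All 30 repair genes were expressed above the testing limit, and none of them passed the threshold. The count was 0 by edgeR's quasi-likelihood test, by DESeq2 and by limma-voom, where 0% of all tested genes passed by the edgeR test. At an unadjusted p under 0.05 there was 1 member, Rad51c, which was lower, against 5.87% of all tested genes (2.86% lower and 3.01% higher). Of the 30, 19 had a log2 fold change of p53R248W/+ over WT below 0 and 11 above 0, and the background was 50% below 0. The median was -0.09, and over all tested genes it lay at 0 to 2 decimals (-8.8e-05). For 15 of the 30 genes the 95% interval of the fold change lay within a 2-fold change in either direction, compared with 34.5% of all tested genes. All 10 members with a mean of at least 100 CPM were among these 15, where the share of all tested genes at that level was 96.4%. Of the 14 members from 20 to 100 CPM, 5 (35.7%) were among them, against 44.4% of all tested genes at that level. None of the 6 members under 20 CPM was, nor was any of the tested genes at that level. The members' median depended on single libraries: it was 0.12 when p53R248W/+ replicate 1 was left out and -0.28 when replicate 2 was.

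For 14 of the 30 genes the genotypes' libraries did not overlap, 6 higher and 8 lower in p53R248W/+. Of all tested genes, 33.6% did not overlap, 16.9% higher and 16.6% lower. The higher ones were Atr, Mre11a, Mdc1, Fancd2, Xrcc6 and Ercc1. The lower ones were Prkdc, Rad50, Nbn, Trp53bp1, Brca1, Rad51c, Lig4 and Ogg1. Both directions occurred within the MRN complex, with no gene past the threshold: Mre11a lay higher, and its partners Rad50 and Nbn lower.

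**Figure D1:**
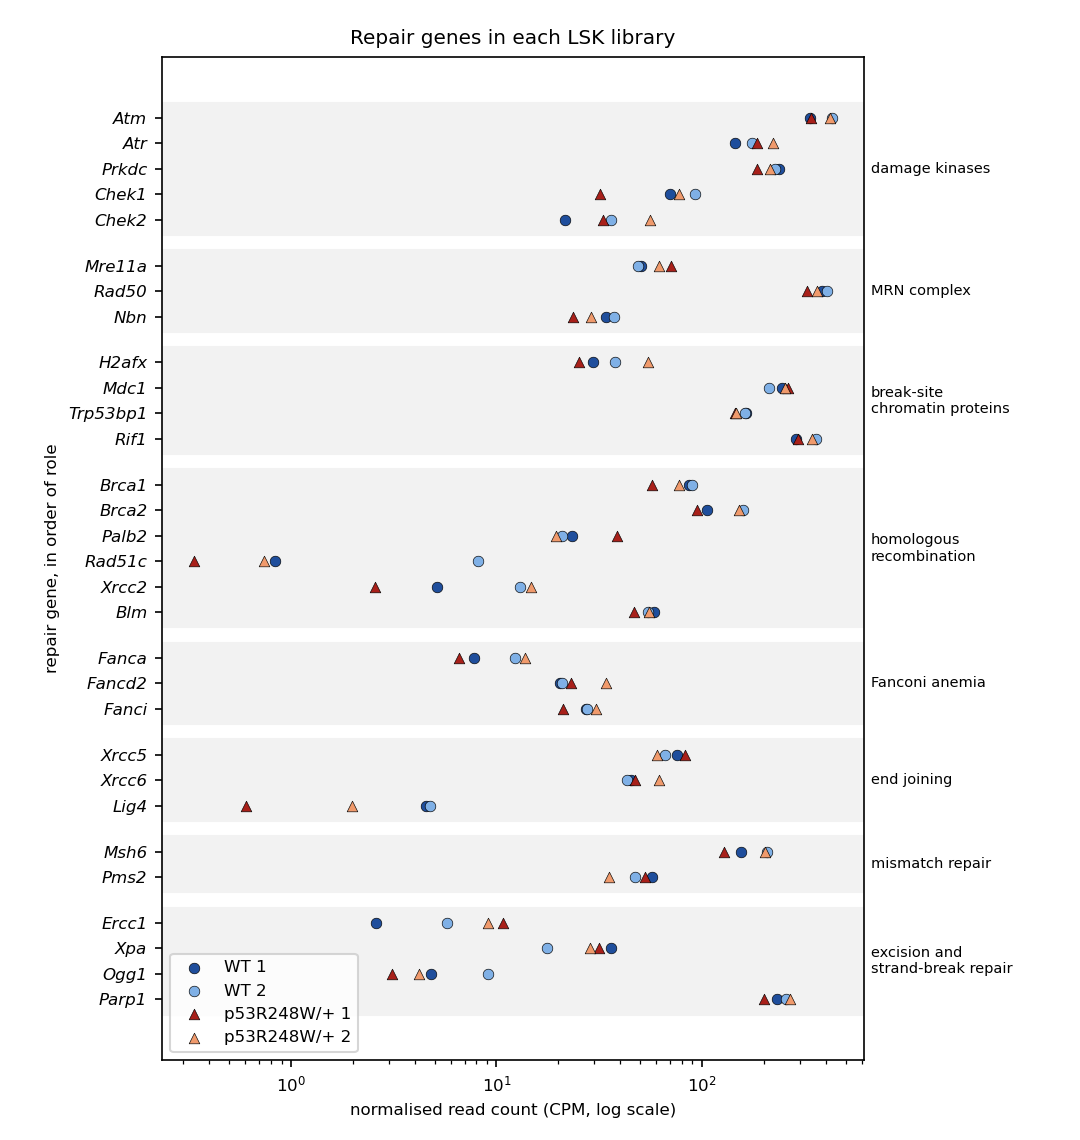
Normalised read count (CPM, log scale) of each of the 30 repair genes, ordered by role, with 1 point per library: circles for WT and triangles for p53R248W/+. Most genes lie between 20 and 430.2 CPM, with the 4 points close together for some (Trp53bp1, Rad50) and apart for others (Chek1, Chek2). Rad51c, Lig4, Xrcc2, Ercc1, Ogg1 and Fanca sit lower, and Rad51c has the widest spread.

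**Figure D2:**
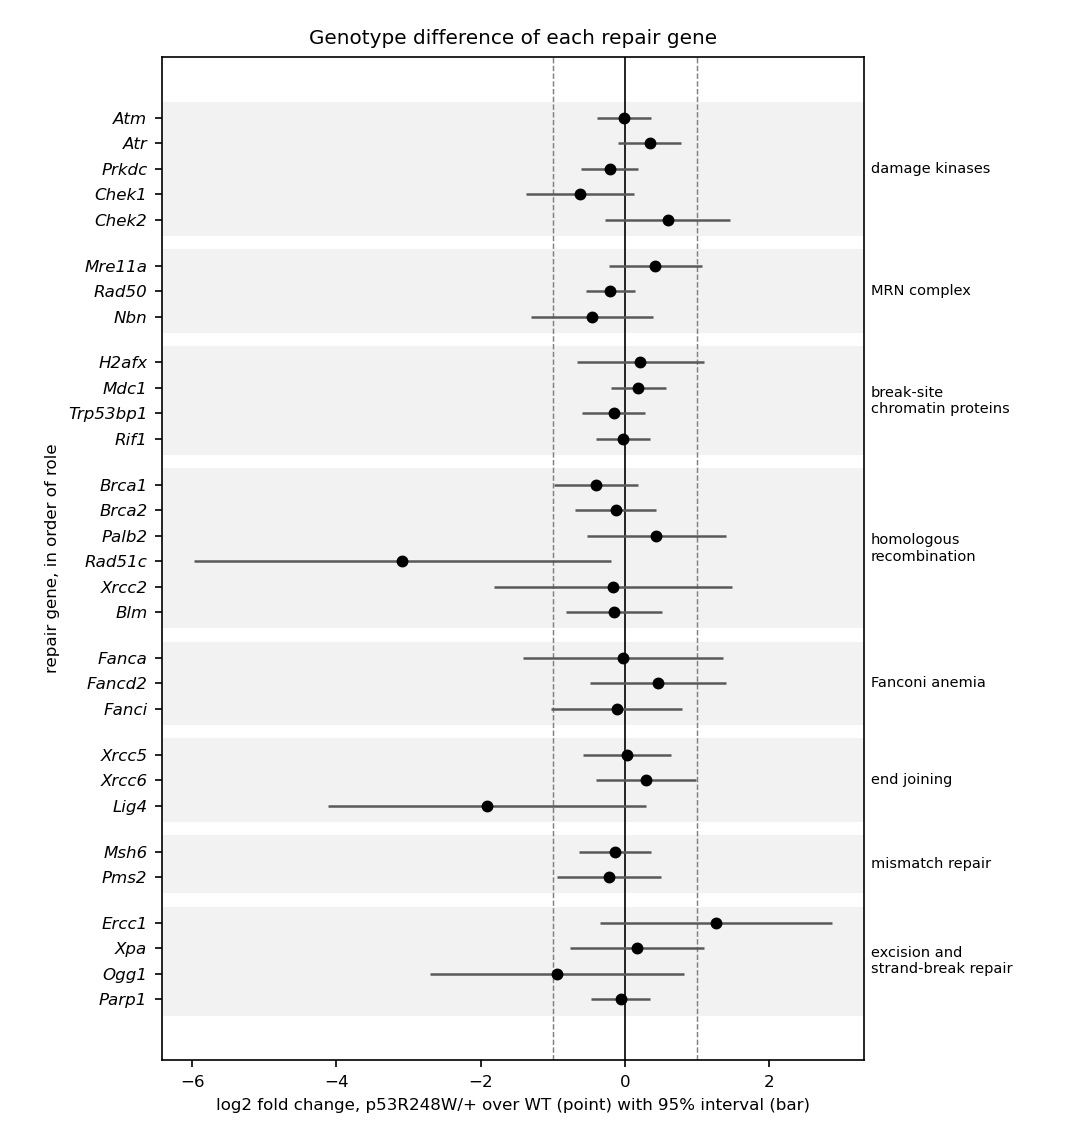
Log2 fold change of p53R248W/+ over WT for each repair gene (point) with its 95% interval (bar), from edgeR's quasi-likelihood fit with 2 libraries per genotype. Dashed lines mark a 2-fold change, and Rad51c is the member whose interval does not reach 0.

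Set against exon length, the levels of the 30 genes spanned from 0.729 to 71.8 RPKM (CPM per kilobase of exon, mean of 4 libraries), with a median of 16.2. Rad50, the coiled-coil ATPase of the MRN complex, was highest at 71.8 ± 6.80 RPKM (SD over 4 libraries). Parp1, which marks strand breaks with poly-ADP-ribose, followed at 62.5 ± 7.85 RPKM and lay below Rad50 in each of the 4 libraries. Next came Msh6 at 40.8 ± 8.99, Rif1 at 37.7 ± 4.28, Mdc1 at 33.1 ± 3.06 and Atm at 31.9 ± 4.31 RPKM, each apart from the next in that order by less than the sum of their SDs. A total of 21 genes reached 10 RPKM. The lowest were the genes of the Fanconi and recombination groups Xrcc2 and Fanca, at 2.75 ± 1.83 and 2.22 ± 0.754 RPKM, and Rad51c and Lig4 at 0.758 ± 1.13 and 0.729 ± 0.495 RPKM. End joining held well-expressed and scarce genes: the Ku subunit genes Xrcc5 and Xrcc6 were at 27.9 ± 3.85 and 23.4 ± 3.97 RPKM, and the gene for the ligase that seals the joint, Lig4, had the lowest mean. Its order against Rad51c rests on WT replicate 2, since Rad51c was the lower of the pair in the other 3 libraries.

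Among the damage kinases, Atm (mm10 chromosome 9, 53437122 to 53536671, minus strand, 64 exon blocks), the kinase that answers double-strand breaks, had the same level in both genotypes within its spread. It had 336 and 430.2 CPM in WT and, in p53R248W/+, 338 and 422 CPM. In each genotype library 2 was the higher, and the log2 fold change of -0.01 ± 0.18 (SE, 2 libraries per genotype) came with a 95% interval from -0.39 to 0.36. Atr (chromosome 9, 95857597 to 95951644), which answers stalled replication, stood at 145 and 176 CPM for WT mice versus 185 and 222 CPM with the mutant allele. Both mutant libraries were above both WT libraries. Its fold change of 0.34 ± 0.21 (SE) did not pass (adjusted p = 0.835, edgeR quasi-likelihood test), and the interval from -0.09 to 0.77 leaves out a doubling. Omitting WT replicate 1 or p53R248W/+ replicate 2 gave 0.21 and 0.20. Atr shares 187 of its 8074 exon bases with 1700065D16Rik on the opposite strand, which had 18 and 12 counts in WT and 0 in both mutant libraries. Prkdc, the DNA-dependent kinase of end joining and the longest of the 30 transcripts at 12674 exon bases, gave 237 and 227 CPM in the WT libraries against 185 and 215 CPM in the mutant ones.

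The transducer kinases lay in opposite directions, neither past the threshold. Chek1 (chromosome 9, 36708482 to 36726658), which encodes Chk1 and acts downstream of ATR in S phase, had 70.2 and 92.8 CPM in WT and, in p53R248W/+, 31.8 and 77.0 CPM. The low value was that of p53R248W/+ replicate 1, and replicate 2 lay between the WT libraries. The fold change was -0.62 ± 0.36 (SE; adjusted p = 0.835, edgeR quasi-likelihood test). Omitting p53R248W/+ replicate 1 brought it to -0.08 and omitting replicate 2 to -1.36. Omitting WT replicate 2 brought it to -0.39. Chek2 (chromosome 5, 110840017 to 110874133), which encodes Chk2 and acts downstream of ATM, stood at 21.7 and 36.2 CPM for WT mice versus 33.1 and 55.7 CPM with the mutant allele. The genotypes overlapped, and the fold change was 0.59 ± 0.41 (SE; adjusted p = 0.855, edgeR quasi-likelihood test). Omitting p53R248W/+ replicate 2 gave 0.19 and omitting replicate 1 gave 0.94. Omitting WT replicate 1 gave 0.28 and omitting WT replicate 2 gave 1.02.

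The MRN genes varied little within a genotype. Rad50 (chromosome 11, 53649519 to 53707319) gave 384 and 406 CPM in the WT libraries against 324 and 365 CPM in the mutant ones, with a fold change of -0.20 ± 0.16 (SE). Mre11a, the nuclease subunit (chromosome 9, 14784707 to 14834417), had 50.8 and 48.6 CPM in WT and, in p53R248W/+, 71.0 and 61.5 CPM. Nbn, which encodes the subunit that binds ATM (chromosome 4, 15957967 to 15992589), stood at 34.2 and 37.5 CPM for WT mice versus 23.7 and 28.9 CPM with the mutant allele. The fold changes of Mre11a and Nbn were 0.42 ± 0.31 and -0.46 ± 0.40 (SE). Within each genotype the libraries of these 3 genes lay apart by at most 1.22-fold, and the genotypes did not overlap. No MRN gene passed (adjusted p = 0.868 to 0.892, edgeR quasi-likelihood test), and single-library omissions left each direction as it was.

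Of the 4 genes whose products assemble on chromatin at a break, Mdc1 lay higher and Trp53bp1 lower in both mutant libraries, and Rif1 and H2afx overlapped. Trp53bp1, which encodes 53BP1 and shields ends for joining, gave 164 and 162 CPM in the WT libraries against 145 and 147 CPM in the mutant ones. This was the member with the smallest spread in the mutant: its libraries differed by 1.02-fold in each genotype, and the fold change was -0.16 ± 0.21 (SE), with an interval from -0.59 to 0.28. Of its 9624 exon bases, 2130 overlap Tubgcp4 on the opposite strand, so part of its count is uncertain if reads were not assigned by strand. Rif1, a partner of 53BP1, had 287 and 360.5 CPM in WT and, in p53R248W/+, 292 and 342 CPM. Mdc1, the reader of phosphorylated H2AX, stood at 245 and 211 CPM for WT mice versus 263 and 254 CPM with the mutant allele. H2afx, which encodes H2AX in a single exon block, gave 29.4 and 37.9 CPM in the WT libraries against 25.2 and 54.7 CPM in the mutant ones, so the mutant libraries enclosed the WT range.

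In homologous recombination, Brca1 (chromosome 11, 101488764 to 101551955, minus strand), which promotes end resection, had 86.8 and 89.4 CPM in WT and, in p53R248W/+, 57.0 and 77.6 CPM. Both mutant libraries were below WT, by different amounts, and the fold change was -0.40 ± 0.28 (SE; adjusted p = 0.856, edgeR quasi-likelihood test). Omitting p53R248W/+ replicate 1 gave -0.18, and omitting replicate 2 gave -0.63. Brca2, which acts after Brca1 in recombination, stood at 106 and 159 CPM for WT mice versus 95.1 and 151 CPM with the mutant allele, a spread within each genotype that exceeded the distance between them. Palb2, the bridge between Brca1 and Brca2, gave 23.2 and 21.0 CPM in the WT libraries against 38.8 and 19.5 CPM in the mutant ones. The helicase gene Blm had 58.4 and 54.4 CPM in WT and, in p53R248W/+, 46.8 and 55.5 CPM. Palb2 and Blm thus overlapped between genotypes, Palb2 with its high value in p53R248W/+ replicate 1.

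The recombination genes Rad51c and Xrcc2 were scarce and uneven. Rad51c (chromosome 11, 87377607 to 87404954, minus strand, 10 exon blocks) had 12 and 116 counts in WT and 5 and 9 counts in p53R248W/+, or 0.837 and 8.14 CPM against 0.337 and 0.743 CPM. WT replicate 2 stood alone, and the other 3 libraries were all under 1 CPM. The fold change was -3.08 ± 1.38 (SE; unadjusted p = 0.0378, adjusted p = 0.824, edgeR quasi-likelihood test). It was -0.67 without WT replicate 2, so most of its size came with 1 library. Xrcc2 stood at 5.16 and 13.0 CPM for WT mice versus 2.56 and 14.7 CPM with the mutant allele. Library 2 was high in both genotypes, and the mutant libraries differed by 5.74-fold.

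The Fanconi genes did not separate the genotypes as a group. Fanca, of the core complex that ubiquitinates the other pair, gave 7.81 and 12.3 CPM in the WT libraries against 6.61 and 13.7 CPM in the mutant ones, and 777 of its 4541 exon bases overlap Zfp276 on the opposite strand. Fancd2 had 20.4 and 20.8 CPM in WT and, in p53R248W/+, 23.1 and 34.1 CPM. Fanci, its clamp partner, stood at 27.4 and 27.6 CPM for WT mice versus 21.0 and 30.5 CPM with the mutant allele, with 398 of 4619 exon bases shared with Polg on the opposite strand. The highest value of all 3 genes was in p53R248W/+ replicate 2.

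Among the end joining genes, the Ku genes were well expressed and the ligase gene was scarce. Xrcc5, which encodes Ku80, gave 75.5 and 66.2 CPM in the WT libraries against 82.9 and 60.7 CPM in the mutant ones. Xrcc6, which encodes Ku70, had 45.2 and 43.2 CPM in WT and, in p53R248W/+, 47.3 and 61.7 CPM. Lig4 (chromosome 8, 9970020 to 9976323, minus strand, 2 exon blocks), which encodes DNA ligase IV, had 65 and 68 counts in WT and 9 and 24 counts in p53R248W/+. These were 4.53 and 4.77 CPM against 0.607 and 1.98 CPM, so the WT libraries were close and the mutant ones both lower. The fold change of -1.92 ± 1.05 (SE) did not pass (unadjusted p = 0.0845, adjusted p = 0.825, edgeR quasi-likelihood test), with an interval from -4.12 to 0.29. Omitting p53R248W/+ replicate 1 gave -1.23, and omitting replicate 2 gave -2.92.

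Of the mismatch repair genes, Msh6, whose product recognises mispaired bases, stood at 156 and 208 CPM for WT mice versus 128 and 203 CPM with the mutant allele. Pms2, of the MutL endonuclease, gave 57.1 and 47.1 CPM in the WT libraries against 53.1 and 35.3 CPM in the mutant ones. For both genes the libraries of the genotypes overlapped. Among the excision and strand-break genes, Parp1 had 232 and 255 CPM in WT and, in p53R248W/+, 200.4 and 269 CPM, a fold change of -0.06 ± 0.19 (SE) with an interval from -0.47 to 0.35. Ercc1, part of the nuclease that cuts beside bulky lesions (chromosome 7, 19345071 to 19356524), stood at 2.58 and 5.75 CPM for WT mice versus 10.8 and 9.09 CPM with the mutant allele. Its fold change of 1.27 ± 0.76 (SE) was the highest of the 30 and did not pass (adjusted p = 0.835, edgeR quasi-likelihood test). Without WT replicate 1 it was 0.80 and without WT replicate 2 it was 1.96. Ercc1 shares 106 of 1487 exon bases with Cd3eap on the opposite strand, which had 133 and 108 counts in WT and 191 and 278 in p53R248W/+. Xpa, the damage-verifying factor of nucleotide excision, gave 35.9 and 17.5 CPM in the WT libraries against 31.6 and 28.5 CPM in the mutant ones. Ogg1, the glycosylase for oxidised guanine, had 4.81 and 9.12 CPM in WT and, in p53R248W/+, 3.10 and 4.21 CPM.

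Libraries of the same genotype also differed from each other. The WT libraries differed by at least 1.5-fold for 7 members and the mutant libraries for 11. Neither count was made over all tested genes, so nothing particular to the repair genes is drawn from them. In p53R248W/+, 23 of the 30 genes were lower in replicate 1 than in replicate 2, against 49.6% of all tested genes. In WT, 20 of the 30 were lower in replicate 1, against 50.5%. The lowest of the 4 values fell in p53R248W/+ replicate 1 for 17 of the 30 genes, where it did so for 26.9% of all tested genes. These 17 included 5 of the 6 recombination genes, with Palb2 the exception, as well as Chek1, Fanca, Fanci, H2afx and Msh6.

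**Figure D3:**
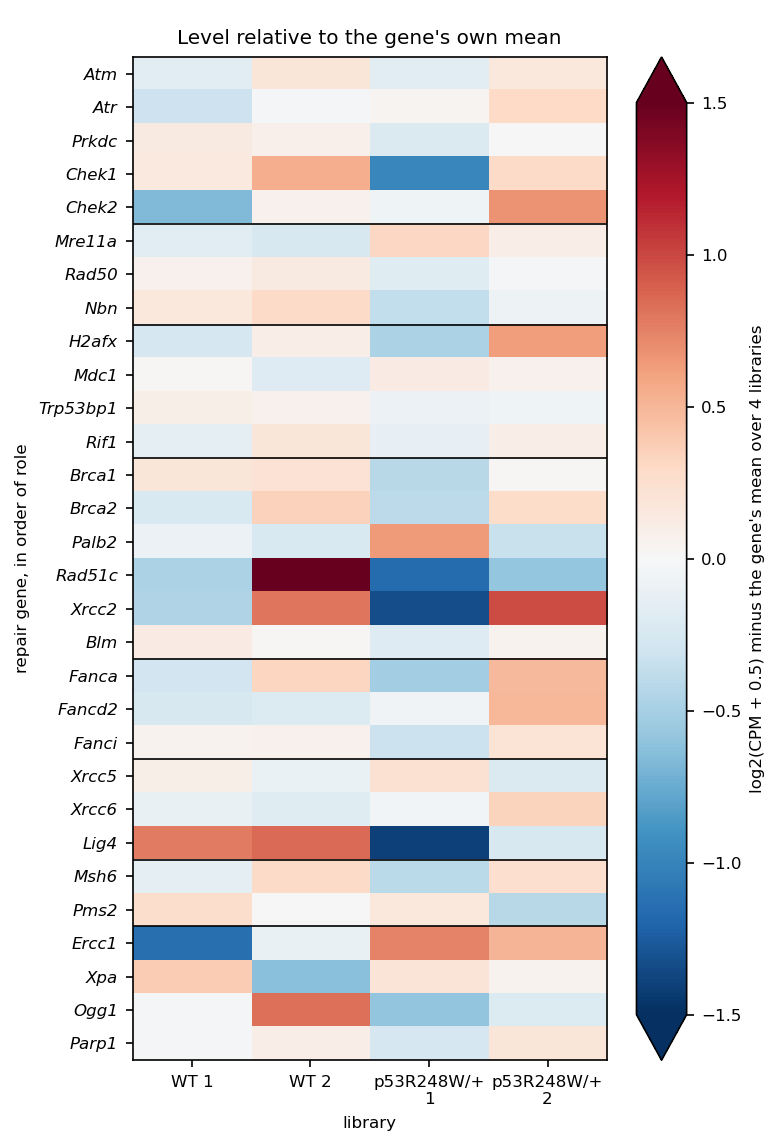
Level of each repair gene in each library as log2(CPM + 0.5) minus that gene's mean over the 4 libraries, with red above and blue below the mean and lines between roles. The p53R248W/+ replicate 1 column is the lowest for 17 of the 30 genes, and Rad51c in WT replicate 2 stands out above the colour scale.

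Genes of the cell cycle also differed between libraries of the same genotype. The summed level of 24 DNA replication genes was 2269 and 2296 CPM for WT, then 1508 and 2130 CPM for p53R248W/+. For 20 mitosis genes the sums were 2113 and 3405 CPM for WT, then 1628 and 3209 CPM for p53R248W/+. The lowest of the 4 values fell in p53R248W/+ replicate 1 for 21 of the 24 replication genes and 17 of the 20 mitosis genes. Summed over the 30 repair genes the level was 2955 and 3289 CPM for WT, then 2767 and 3316 CPM for p53R248W/+. Repair, replication and mitosis sums thus had the same order within each genotype, replicate 1 below replicate 2, though the WT replication sums lay close together. The part of the cell cycle in the repair gene levels was not tested. In these bulk samples, fewer cells in cycle and less RNA per cell cannot be told apart.

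**Figure D4:**
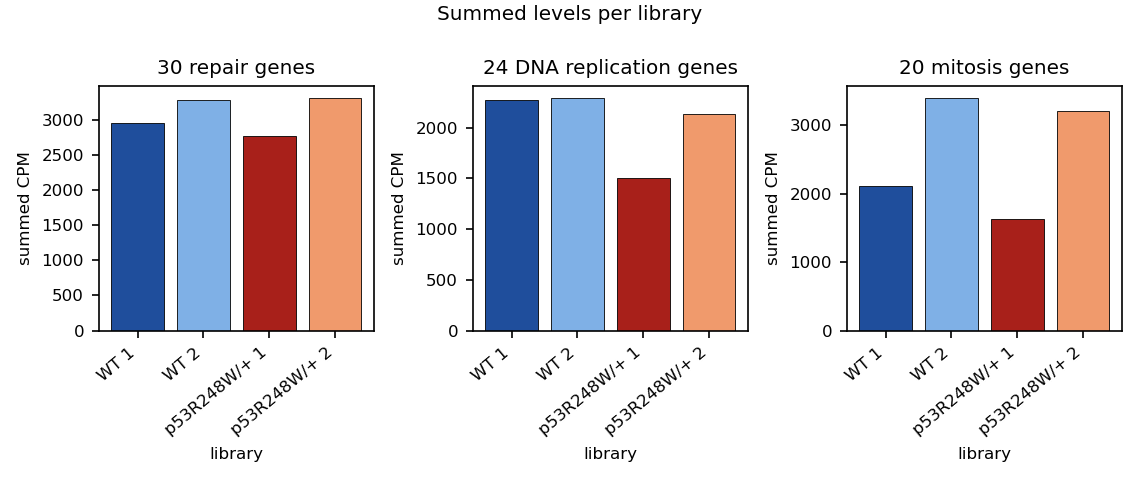
Summed CPM of the 30 repair genes, 24 DNA replication genes and 20 mitosis genes, with 1 bar per library and each axis starting at 0. The p53R248W/+ replicate 1 bar is the lowest in all 3 panels, at 2767, 1508 and 1628 CPM.

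Promoter windows were searched for motifs of cell cycle control. RefSeq windows from 250 bases before to 50 after the start (build GRCm38.p6, the assembly that mm10 names) were matched for 23 of the members, in 25 windows. E2F factors, which switch on S-phase genes, bind sites searched here as TTTCCCGC, TTTCGCGC, TTTGCCGC and TTTGGCGC on both strands. A match lay in 7 of the 25 windows (28.0%), belonging to 6 genes, while 2.26% of all 32851 windows and 3.83% of the 12733 windows of tested genes held one. The windows of the other repair genes named further below held one in 7.34%. The CHR motif of mitotic genes, TTTGAA, was in 0 of the 25 windows, in 17.9% of all windows, in 12.3% of the windows of tested genes and in 10.1% of those of the other repair genes. Of the 6 genes with an E2F match, Brca2, Rad51c and Msh6 were lowest in p53R248W/+ replicate 1, while Chek2, Xrcc6 and Mdc1 were not. The stretch of 60 bases around each match is given 5′ to 3′ on the gene's strand to let the sites be compared, with the match in capitals. A match is a description of these letters and not a bound site.
Chek2 (chr5:110839805-110839864, plus strand, match from position -152): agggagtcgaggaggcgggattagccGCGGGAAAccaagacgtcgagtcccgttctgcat
Brca2 (chr5:150522427-150522486, plus strand, match from position -168): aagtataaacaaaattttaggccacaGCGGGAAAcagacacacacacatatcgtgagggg
Rad51c, downstream start (chr11:87404462-87404521, minus strand, match from position 11): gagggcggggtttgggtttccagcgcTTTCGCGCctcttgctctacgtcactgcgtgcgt
Rad51c, upstream start (chr11:87404926-87404985, minus strand, match from position -5): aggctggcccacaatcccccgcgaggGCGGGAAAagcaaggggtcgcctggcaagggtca
Xrcc6 (chr15:82016297-82016356, plus strand, match from position -46): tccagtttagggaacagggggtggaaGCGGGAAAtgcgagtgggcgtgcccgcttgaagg
Mdc1 (chr17:35841456-35841515, plus strand, match from position -16): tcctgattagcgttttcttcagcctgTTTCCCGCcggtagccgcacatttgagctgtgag
Msh6 (chr17:87975039-87975098, plus strand, match from position 15): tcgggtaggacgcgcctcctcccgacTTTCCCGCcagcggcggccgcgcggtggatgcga
Positions count from the annotated start at 0, with negative numbers before it. Most of the matches held TTTCCCGC, 4 of the 7 on the opposite strand as GCGGGAAA, and 1 start of Rad51c held TTTCGCGC.

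Several members share a start region with another gene. In the deposited gene models, 10 of the 30 had a gene on the opposite strand whose start lay within 1000 bases. These pairs were looked up after the levels were known. The count was not made over all genes, so nothing particular to the repair genes is drawn from it. The pairs of Atm, Brca1, Prkdc and Fancd2 are described here. Atm starts 376 bases from Npat, a regulator of histone transcription, which stood at 147 and 143 CPM for WT mice versus 131 and 138 CPM with the mutant allele. Brca1 starts 152 bases from the autophagy receptor gene Nbr1, with a fold change of -0.13 for Nbr1 and -0.40 for Brca1. Prkdc starts 466 bases from the replicative helicase gene Mcm4, with fold changes of -0.21 for Prkdc and -0.15 for Mcm4. Fancd2 starts 44 bases from Emc3, which gave 89.8 and 86.1 CPM in the WT libraries against 56.5 and 59.1 CPM in the mutant ones, a fold change of -0.61 ± 0.28 (SE). Fancd2 lay in the other direction at 0.45 ± 0.45 (SE). Neither gene of the Fancd2 and Emc3 pair passed over all genes, and the difference between them was not tested.

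Beyond the 30, 119 of 120 further repair symbols matched the table and 118 were tested. None passed over all genes by edgeR's quasi-likelihood test, DESeq2 or limma-voom. At an unadjusted p under 0.05 there were 6, 4 higher and 2 lower, against 5.87% of all tested genes. Of the 118, 65 had a fold change below 0 and 53 above, and the median was -0.08. By function, 23 of 30 further recombination genes had a value below 0 (median -0.29) and 6 of 8 further end joining genes one above 0 (median 0.62). The groups were small, and without a test over the lists nothing particular is drawn from them.

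Genes of end joining gave 2 of the 6. Xrcc4, the scaffold that holds Lig4, had 8.51 and 7.15 CPM in WT and, in p53R248W/+, 20.03 and 21.9 CPM, a fold change of 1.41 ± 0.57 (SE; adjusted p = 0.824, edgeR quasi-likelihood test). Dclre1c, which encodes the hairpin-opening nuclease Artemis, stood at 64.2 and 53.9 CPM for WT mice versus 100.3 and 93.4 CPM with the mutant allele (0.72 ± 0.27, SE). Both lay higher in both mutant libraries, while Lig4, which acts with them, lay lower. End joining also completes V(D)J recombination in lymphocyte precursors. The summed level of 8 B cell markers was 8.23 and 12.8 CPM for WT, then 45.7 and 24.2 CPM for p53R248W/+. Pax5 was at 0 in all libraries, and only 4 of the 8 markers had enough reads to test. The part of B lineage cells in the end joining values was not tested.

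The remaining 4 were spread over other pathways. Rad51d, a recombination gene, gave 66.2 and 57.6 CPM in the WT libraries against 125 and 80.5 CPM in the mutant ones. Rad51b, also of recombination, lay the other way at 14.4 and 23.3 CPM against 7.01 and 7.52 CPM. Fancb, of the Fanconi core complex, had 4.88 and 5.89 CPM in WT and, in p53R248W/+, 23.9 and 9.25 CPM, a fold change of 1.67 ± 0.69 (SE). Omitting p53R248W/+ replicate 1 brought it to 0.78. The Rad51d value of 0.74 ± 0.29 (SE) was 0.38 without that library. Lig1, which seals nicks in replication and excision repair, had a fold change of -0.76 ± 0.23 (SE) and the smallest unadjusted p of the list at 0.00338, with an adjusted p of 0.824 (edgeR quasi-likelihood test). Rad51b and Rad51c were thus lower and Rad51d higher in both mutant libraries, and Xrcc2 overlapped.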

How the data were processed

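The authors' deposited table gives raw read counts per gene symbol for the 4 libraries, with exon coordinates and exon length, a value of another kind. The submitters' processing notes name the build mm10 and the tools STAR 2.7.10a, featureCounts (Subread 2.0.3), edgeR 3.40.2 and FastQC 0.11.5. Strand assignment and the handling of reads with several alignments are not given in the sources used here. The members and gene lists were chosen with earlier results of these data known.

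Genes were filtered with filterByExpr (minimum count 10, minimum total 15), scaled by TMM and tested with edgeR 4.0.16 (estimateDisp, glmQLFit with robust=TRUE and legacy=FALSE, glmQLFTest) in R 4.3.3 on 13296 genes, fitting genotype alone. Benjamini-Hochberg adjustment ran over all tested genes (threshold 0.05). The SE is the log2 fold change over the square root of F, so it also carries the spread shared over genes.

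All 30 members were named. Fold changes with SE were to be given for the 10 members with the smallest unadjusted p and for Atm, Atr, Chek1, Chek2, Brca1, Trp53bp1 and Parp1, and other repair genes named at an unadjusted p under 0.05, a mean CPM of 5 or more and genotypes that did not overlap. Fancd2, Prkdc and the neighbours Emc3, Nbr1, Npat, Mcm4 and 1700065D16Rik were added after their values were seen. Alternatives were median-ratio and total-count scaling, DESeq2 1.42.0, limma-voom (limma 3.58.1), no filter, a stricter filter (1 CPM in 2 libraries, mean 5 CPM), the replicate number as a block, each library left out and, added after seeing the data, edgeR's legacy fit.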

Additional observations from a re-analysis of the deposited data

How the results depend on the processing

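No repair member passed under any of the 12 alternatives, and 17 of the 30 kept their direction in each alternative that tested them. How many of all tested genes kept their direction was not counted, so the 17 are not set against other genes. The stricter filter tested 28 members and left out Rad51c and Lig4. Over all genes, DESeq2 called 6 and leaving out single libraries gave 0 to 1. Members at an unadjusted p under 0.05 numbered 0 with the stricter filter, 0 with the legacy fit, and 0 to 1 with a library left out. The members' median ran from -0.28 to 0.12 with single libraries left out, and the further repair genes at an unadjusted p under 0.05 numbered 0 to 10. With the replicate number as a block, a number the labels do not tie to a shared animal or day, 0 genes passed, 18 members were lower and the median was -0.09. Replicate differences of the genotypes did not correlate across all tested genes (r = -0.0074), and a shared day or batch is not given in the labels. The repair, replication and mitosis sums were lower in replicate 1 than in replicate 2 of both genotypes. The WT replication sums lay close together, at 2269 and 2296 CPM.

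Directions turned for 13 members, with no such count made over all tested genes. With single libraries left out, the log2 fold changes of those that turned ran from -0.18 to 0.18 for Atm, -0.42 to 0.70 for H2afx, -0.18 to 0.15 for Rif1, -0.48 to 0.21 for Brca2, -0.18 to 0.81 for Palb2, -1.82 to 0.70 for Xrcc2, -0.60 to 0.45 for Fanca, -0.39 to 0.15 for Fanci, -0.22 to 0.23 for Xrcc5, -0.50 to 0.16 for Msh6, -0.56 to 0.027 for Pms2, -0.25 to 0.78 for Xpa and -0.29 to 0.14 for Parp1. Leaving out p53R248W/+ replicate 1 turned 10 members and WT replicate 2 turned 9. Fanca, at -0.03 over all libraries, was at 0.014 with DESeq2, 0.015 with the legacy fit and 0.00047 with the replicate block. The cause was not tested. An omission leaves 1 library in an arm, which is assumed to vary like the other genotype. The biological coefficient of variation was 46.0%, and depth limits Rad51c, Lig4 and Ercc1, with 5 to 160 counts.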
